A study of Rattus norvegicus with 18 samples.

Results

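The transcripts described here belong to the machinery that moves membrane vesicles between compartments of the cell, measured in the testes of Wistar rats aged 8 weeks. They were chosen by name, under a rule written with earlier results of these data known. The rule took every row of the deposited RNA table whose RefSeq accession matched a rat symbol with a listed start. The starts were Rab, Arf, Arl, Vps, Snx or Stx and a digit, or Vamp, Copa, Copb, Cope or Copg. *Tom1* was added singly by its full symbol. This gave 110 transcripts of 109 genes among 7016 transcripts in the table, with 2 transcripts of *Snx27* and 1 of every other gene. The table holds 3 libraries of a chronic sleep restriction (CSR) group and 3 libraries of a control group, all from testis; the labels name no genotype or drug and do not say how sleep was restricted or for how long. No label ties a library to an animal, so the p-values measure the spread between these libraries, which may be technical. The 12 methylation libraries of the study were not used here.

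Rab, Arf and Arl proteins are small GTPases that act as switches: bound to GTP they sit on a membrane and recruit the proteins that bud, carry or dock a vesicle. The COPI coat returns vesicles from the Golgi to the endoplasmic reticulum, sorting nexins and the retromer retrieve cargo from endosomes, and the ESCRT proteins and *Tom1* sort ubiquitin-tagged cargo towards the lysosome. Syntaxins and Vamps are SNARE proteins, which pull a vesicle and its target membrane together until they fuse. In the testis this traffic is known for building the acrosome, the secretory cap of the sperm head, from Golgi vesicles in round spermatids. Not every symbol caught by the naming rule belongs to it: *Vps72* encodes a chromatin protein and *Arl6ip4* a protein linked to splicing.

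Levels are given as FPKM, fragments scaled to transcript length and to the fragments mapped in the library, so that genes can be compared; the read depth is unknown. Where 3 values stand against 3, they are those of CSR libraries 1, 2 and 3 and then of control libraries 1, 2 and 3. Library medians over all transcripts lay between 3.69 and 3.97 FPKM, but transcripts listed at 0 made up 14.3 to 20.2% of the table in CSR libraries and 3.92 to 6.03% in control libraries. Control library 3 stood apart from the other control libraries. In the deposited codes, control libraries 1 and 2 share every character but the final digit, whereas control library 3 has another number before that digit, so control libraries 1 and 2 may come from 1 animal, which the labels do not settle. The summed level of 11 transcripts of elongating spermatids, led by *Tnp1* and *Oaz3*, was 21976.5 FPKM in control library 3, inside the CSR range of 19945.3 to 23339.5. It was 12469.1 and 14003.6 in control libraries 1 and 2. Single transcripts of this sum differed. *Prm1* read 3029, 2572 and 968 FPKM under CSR against 0.0934, 0.0981 and 877 in control. At *Tnp1*, CSR library 1 (3903.1 FPKM) was below control libraries 1 and 2 (4297.5 and 4411.2). Sums of round spermatid markers, led by *Tssk2* and *Acrv1* (661 to 766 FPKM under CSR, 574 to 707 in control), spermatocyte markers, led by *Sycp3* and *Hormad1* (139 to 190, 89.6 to 175), spermatogonial markers *Uchl1* and *Dazl* (24.03 to 36.1, 25.4 to 31.2), Leydig markers, led by *Insl3* and *Cyp17a1* (72.6 to 124, 72.1 to 94.7), peritubular markers, led by *Myh11* and *Dcn* (23.9 to 30.01, 25.4 to 32.02), and *Hba-a1* and *Hbb* of blood (3.02 to 25.5, 5.32 to 28.9) overlapped between groups. Those of Sertoli cells, led by *Cst12* and *Ctsl* (143 to 163, 171 to 179), and macrophages, led by *Mrc1* and *Lyz2* (13.9 to 16.9, 17.02 to 22.98), did not, and both were lower under CSR. The macrophage ranges nearly met. Log2 fold changes were positive at 2 and negative at 6 tested Sertoli transcripts (median -0.06), and positive at 1 and negative at 4 macrophage transcripts (median -0.25). All CSR libraries were below all control libraries at 12.6% of all tested transcripts. Whether these sums differ from that background was not tested. Single markers could differ where sums did not: *Eqtn* of the round spermatid list and *Ccna1* of the spermatocyte list were called higher under CSR, and *Col1a1* of the peritubular list was called lower. None of 6 epididymal genes was in the table. In whole tissue, fewer cells of a type and less RNA per cell cannot be told apart, and the part of cell makeup in the differences below was not tested.

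The highest of the 110 transcripts was *Snx3* (NM_001044283), a sorting nexin that works with the retromer, with 114, 117 and 117 FPKM under CSR against 110, 112 and 118 in control. It was also the steadiest, with 1.07 times between its highest and lowest library. Means over the 6 libraries ran from 0.158 FPKM to this 115 FPKM with a median of 5.64, against 3.995 over the whole table, and 26 members had a mean of 10 FPKM or more. *Stx18* (NM_001012151), a syntaxin of the endoplasmic reticulum that receives vesicles coming back from the Golgi, came next with 75.96, 71.2 and 67.6 FPKM under CSR against 66.3, 62.2 and 72.6 in control. *Arf4* (NM_024151), a Golgi GTPase that also serves cilia, had 38.5, 34.5 and 38.9 FPKM under CSR against 42.96, 43.8 and 38.1 in control. The groups of all 3 overlapped. In all, 21 members kept their highest library within 1.5 times their lowest, and besides *Snx3*, *Stx18* and *Arf4* they include *Rab11a*, *Rab8a*, *Copa*, *Vps29* and *Vps16*.

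**Figure D1:**
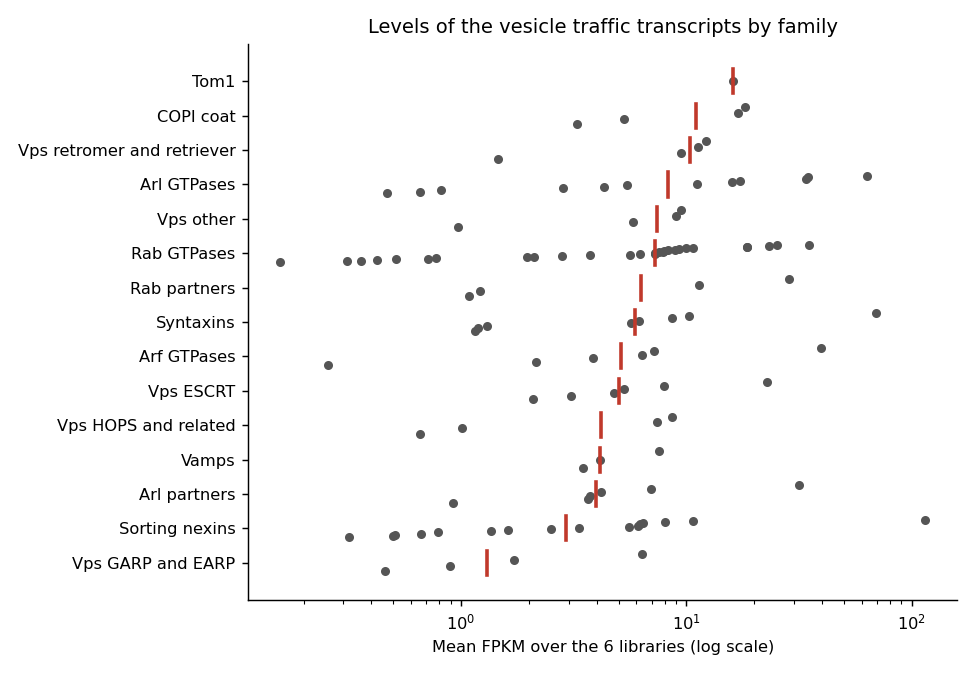
Mean FPKM over the 6 RNA libraries (log axis) of the 110 transcripts, 1 point each, by family; red bars are family medians. *Snx3* is the point farthest right at 115 FPKM, and the Rab GTPases hold members from under 1 to 35.1 FPKM.

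A single member, *Tom1*, was called higher under CSR, and the rule had named it singly with earlier results known. *Tom1* (NM_001008365), an endosomal adaptor that binds ubiquitin and clathrin, read 32.98, 30.2 and 29.8 FPKM under CSR against 0.446, 2.56 and 0.265 in control. The groups did not overlap, and the lowest CSR library stood far above the highest control library. Means were 31.0 ± 1.76 and 1.09 ± 1.28 FPKM (SD, n = 3 each), a ratio of 28.4. Control libraries 1 and 3 were under 1 FPKM and the control SD exceeds the control mean, so this ratio is imprecise. On the log2(FPKM + 1) scale the change was 4.10 with a standard error of 0.40 (limma, adjusted p = 0.0269 over all 5657 tested transcripts). Control library 3 was the lowest of all at *Tom1*. Besides *Tom1*, 2 germ cell markers were called higher with low values in all control libraries. *Eqtn*, an acrosomal membrane protein of spermatids, read 30.1, 30.04 and 14.2 FPKM under CSR against 1.44, 2.27 and 1.997 in control (adjusted p = 0.0269). *Ccna1*, the cyclin of male meiosis, read 10.7, 5.59 and 6.06 FPKM under CSR against 0.875, 0.841 and 0.735 in control (adjusted p = 0.0421). The lists of *Eqtn* and *Ccna1* were mixed. Log2 fold changes were positive at 7 and negative at 4 round spermatid transcripts, and positive at 4 and negative at 2 spermatocyte transcripts. In the elongating spermatid list, with 0 called, they were positive at 10 transcripts and negative at 1. *Col1a1*, a collagen of stromal cells, was called lower, at 0, 0 and 0 FPKM under CSR against 2.30, 2.14 and 2.73 in control (adjusted p = 0.0421). The CSR libraries list more of the whole table at 0 than the control libraries, and the part of this in *Col1a1* was not tested. *Tom1* and *Ccna1* reached the 1 FPKM in 3 libraries needed for testing only through the CSR group, and *Col1a1* only through the control group. Without that filter *Tom1* was still called (limma, adjusted p = 0.028). The part of germ and stromal cells in the change of *Tom1* was not tested. The *Tom1* call was lost without CSR library 1, 2 or 3 or control library 1 (adjusted p between 0.0671 and 0.105, log2 fold change between 3.91 and 4.12) and with a pseudocount of 0.1 (adjusted p = 0.101); over all 17 alternatives the adjusted p ran from 0.00316 to 0.171. RefSeq lists 4 transcripts of *Tom1* in GRCr8 and the table holds 1. The gene's span overlaps that of LOC102556139. Strand and exons were not compared, so whether reads of LOC102556139 are counted for *Tom1* was not tested. Spans of 48 of the 109 genes overlap another gene in this way, *Vps35* among them.

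*Tollip*, which binds *Tom1* on endosomes, read 15.3, 12.3 and 13.3 FPKM under CSR against 17.2, 21.7 and 14.3 in control, with an adjusted p of 0.397. Its groups overlapped. *Tom1l1*, a paralog of *Tom1*, read 1.97, 0 and 2.68 FPKM under CSR against 2.04, 2.70 and 1.40 in control, with no separation of the groups either. Both were picked for their known tie to *Tom1* after their values were seen, and the difference of their changes from that of *Tom1* was not tested.

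Over the whole set, 1 of 91 tested members was called, beside 0.442% of all tested transcripts. It was higher, as were 0.23% of all, and 0 members were called lower, beside 0.212%. The called member was *Tom1*, which the rule named singly with earlier results known, so this count says nothing about the families. At an unadjusted p under 0.05 the set held 12 of 91, beside 13.2% of all tested transcripts. Of these, 4 were higher (5.9% of all) and 8 lower (7.32%). All CSR libraries lay above all control libraries at 7 of 91 members (8.96% of all tested transcripts) and below at 13 of 91 (12.6%). Log2 fold changes were negative at 57 members, beside 56.0% of all, and positive at 34, beside 44.0%. The median was -0.12 for the members and -0.06 for all tested transcripts. These shares are near the background and are no result about vesicle traffic genes as a group.

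**Figure D2:**
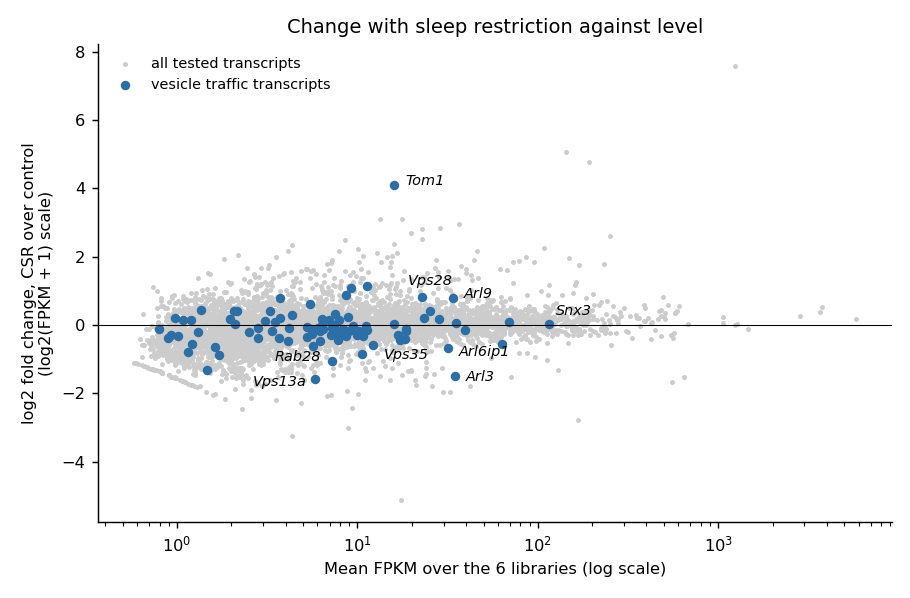
Log2 fold change of CSR over control on the log2(FPKM + 1) scale against the mean FPKM of the 6 libraries (log axis); grey points are all 5657 tested transcripts and blue points the 91 tested vesicle traffic transcripts. *Tom1* is the highest blue point at 4.10, and the other members lie between -1.58 and 1.15 inside the grey cloud.

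The start regions of 5 genes are shown so that *Tom1* can be set beside *Arl6ip1*, *Vps35* and *Rab5c*, which passed the test only when control library 3 was left out, and *Snx3*, the steadiest member; they were chosen after their values were seen. Each sequence is the 250 bases before the RefSeq gene start in build GRCr8, 5′ to 3′ on the gene's strand. Capitals mark TGACG, the core of the cAMP response element that testis factors such as CREM bind, or CCAAT, on either strand. TATAAA and the full element TGACGTCA, which contains TGACG, were searched on both strands too and are in none of the 5. *Tom1* lies at chr19:13410994-13411243 (plus strand), *Arl6ip1* at chr1:181874233-181874482 (minus strand), *Vps35* at chr19:37938739-37938988 (plus strand), *Rab5c* at chr10:86166450-86166699 (minus strand) and *Snx3* at chr20:47574690-47574939 (plus strand).
Tom1: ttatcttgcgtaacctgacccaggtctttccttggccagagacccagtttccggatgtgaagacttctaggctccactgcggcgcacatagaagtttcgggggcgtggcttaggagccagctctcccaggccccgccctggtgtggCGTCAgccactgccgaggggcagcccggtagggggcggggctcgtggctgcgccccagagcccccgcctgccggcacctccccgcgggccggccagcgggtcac
Arl6ip1: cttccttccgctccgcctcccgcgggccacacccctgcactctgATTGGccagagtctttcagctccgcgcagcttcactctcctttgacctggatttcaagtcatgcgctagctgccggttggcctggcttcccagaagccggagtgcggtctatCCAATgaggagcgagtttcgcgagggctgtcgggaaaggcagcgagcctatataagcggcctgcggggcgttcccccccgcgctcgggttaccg
Vps35: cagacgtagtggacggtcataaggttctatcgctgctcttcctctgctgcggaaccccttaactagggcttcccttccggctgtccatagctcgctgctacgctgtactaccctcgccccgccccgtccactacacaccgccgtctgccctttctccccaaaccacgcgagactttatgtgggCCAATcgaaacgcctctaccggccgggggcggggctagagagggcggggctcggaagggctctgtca
Rab5c: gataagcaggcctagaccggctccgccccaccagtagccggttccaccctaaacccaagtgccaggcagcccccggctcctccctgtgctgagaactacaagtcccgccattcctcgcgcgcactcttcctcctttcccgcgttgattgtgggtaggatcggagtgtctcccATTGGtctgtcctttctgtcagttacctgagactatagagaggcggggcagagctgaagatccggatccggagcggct
Snx3: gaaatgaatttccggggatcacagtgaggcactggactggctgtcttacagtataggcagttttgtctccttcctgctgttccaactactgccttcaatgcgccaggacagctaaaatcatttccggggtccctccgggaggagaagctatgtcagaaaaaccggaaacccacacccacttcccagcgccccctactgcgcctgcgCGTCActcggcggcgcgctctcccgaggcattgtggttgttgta

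The windows of *Tom1* and *Snx3* hold TGACG, and those of *Arl6ip1*, *Vps35* and *Rab5c* hold CCAAT. The GC share was 68.8% for *Tom1*, 63.6% for *Arl6ip1*, 62.4% for *Vps35*, 60.4% for *Rab5c* and 56.0% for *Snx3*. Windows were found for 95 of the 109 member genes. Their median was 62.4% GC with 18 CpGs, beside 59.6% and 16 for the 5790 windows of genes in the RNA table. TGACG was in 37.9% of member windows and 31.6% of the windows of genes in the table, CCAAT in 37.9 and 37.6%, TATAAA in 1.05 and 6.49%, and TGACGTCA in 2.11 and 3.61%. Over all 33465 windows the shares were 18.2% for TGACG, 34.0% for CCAAT, 12.9% for TATAAA and 1.59% for TGACGTCA. A match describes letters in the window and is not shown to be a site.

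At some members control library 3 lay with the CSR libraries. *Arl6ip1* (NM_198737), which shapes the tubules of the endoplasmic reticulum, read 25.9, 21.3 and 22.9 FPKM under CSR against 46.1, 50.6 and 23.5 in control. *Vps35* (NM_001105718), the core of the retromer, read 9.58, 9.42 and 9.24 FPKM under CSR against 17.4, 17.02 and 10.3 in control. *Rab5c* (NM_001105840), a GTPase of early endosome fusion, read 27.5, 29.8 and 28.6 FPKM under CSR against 18.9, 18.6 and 27.5 in control. In each of the 3, control libraries 1 and 2 stood apart from all CSR libraries and control library 3 was next to or among them. Without control library 3 their log2 fold changes were -1.02, -0.81 and 0.59 with adjusted p of 0.0273, 0.0273 and 0.0312; with it they had adjusted p of 0.374, 0.363 and 0.372. Leaving out control library 3 brought the called members to 4 of 91 tested and the called transcripts to 259 of 5657 tested. The share of members is near that of all transcripts, so these calls are no result about the members as a group. If control libraries 1 and 2 are of 1 animal, those calls set that animal against the CSR libraries, and a difference of 1 animal cannot be told apart from one of the group. With control libraries 1 and 2 counted as 1 library, 7 transcripts and 1 member, *Tom1* (adjusted p = 0.0361), were called.

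At 33 of 91 members control libraries 1 and 2 were both above all CSR libraries, beside 27.0% of all tested transcripts. At 16 of 91 members control libraries 1 and 2 were both below all CSR libraries (21.2% of all tested transcripts). *Copg2*, a COPI subunit, read 16.8, 14.96 and 13.9 FPKM under CSR against 23.2, 26.9 and 13.7 in control. *Rab1a*, which acts between endoplasmic reticulum and Golgi, read 19.4, 15.1 and 14.6 FPKM under CSR against 27.6, 28.7 and 6.65 in control. In both, control libraries 1 and 2 were above all CSR libraries and control library 3 was the lowest of all 6.

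Below *Tom1*, the members with the smallest p that were higher under CSR did not pass the test. *Vps28* (NM_001130492), a subunit of ESCRT-I, read 29.3, 30.7 and 26.7 FPKM under CSR against 23.2, 10.3 and 17.2 in control. Its groups did not overlap (log2 fold change 0.81, standard error 0.27, adjusted p = 0.363). *Rab7a* (NM_023950), the GTPase of late endosomes, read 12.4, 13.2 and 11.1 FPKM under CSR against 1.63, 8.25 and 8.995 in control. *Rab11fip2* (NM_001107447), an effector of Rab11 on recycling endosomes, read 15.01, 16.6 and 13.8 FPKM under CSR against 10.6, 2.01 and 10.05 in control. *Rab13*, a Rab of cell junctions, read 6.12, 4.25 and 4.16 FPKM under CSR against 0.865, 3.22 and 3.75 in control. In these 3 the groups did not overlap. In each, 1 control library was far below the other control libraries: library 1 for *Rab7a* and *Rab13* (adjusted p = 0.394 and 0.395), library 2 for *Rab11fip2* (0.386). *Arl2*, which helps fold tubulin, read 7.86, 7.15 and 5.19 FPKM against 2.91, 3.93 and 5.55. *Rab8a*, which directs vesicles to the cell surface and the cilium, read 26.7, 24.8 and 23.4 FPKM against 19.4, 19.7 and 25.5. *Rab4b*, a Rab of fast recycling, read 10.6, 8.84 and 9.60 FPKM against 7.26, 7.77 and 9.42. Their groups overlapped, as did those of *Rab5if* (32.7, 30.3 and 27.1 FPKM against 24.4, 26.1 and 29.8) and *Arl9* (38.97, 41.6 and 40.4 FPKM against 40.5, 33.4 and 8.37), where control library 3 was the low one. The adjusted p of these 5 lay between 0.372 and 0.499.

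Nor did any member that was lower under CSR pass. *Stx2* (NM_012748), a syntaxin required for the division of spermatocytes in mice, read 5.04, 5.70 and 4.46 FPKM under CSR against 7.15, 7.81 and 6.93 in control. It had the smallest p among them, and its groups did not overlap (log2 fold change -0.46, standard error 0.14, adjusted p = 0.363). *Stx17*, the SNARE that joins autophagosomes to lysosomes, read 0.333, 1.09 and 0.363 FPKM against 1.40, 1.78 and 1.94. *Snx19*, which ties endosomes to the endoplasmic reticulum, read 10.2, 8.47 and 9.68 FPKM against 13.01, 11.5 and 11.6. *Copa*, the alpha subunit of the COPI coat, read 14.7, 16.6 and 13.6 FPKM against 19.9, 19.5 and 16.7. In these 3 as well, each CSR library was below each control library, at adjusted p of 0.363, 0.366 and 0.372. *Rab10*, a Rab of transport to the surface, read 5.87, 7.32 and 6.14 FPKM against 10.8, 9.74 and 7.14. *Rab18*, a Rab of lipid droplets, read 8.05, 6.53 and 5.97 FPKM against 9.29, 9.92 and 7.85. In both, control library 3 was inside the CSR range, so the groups overlapped.

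Of the 12 members with the smallest p that were lower under CSR, 3 had values at 0. *Vps26c*, a subunit of the retriever complex, read 0, 1.51 and 0 FPKM under CSR against 2.80, 1.86 and 2.58 in control. *Vps54*, whose mutation in the wobbler mouse disturbs acrosome formation, read 1.73, 1.31 and 0 FPKM under CSR against 2.91, 2.53 and 1.80 in control. *Vps13a*, a lipid transfer protein, read 2.67, 6.95 and 0 FPKM under CSR against 9.33, 5.97 and 9.75 in control. CSR library 3 was listed at 0 in these 3, and the groups overlapped at *Vps13a* alone of them.

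**Figure D3:**
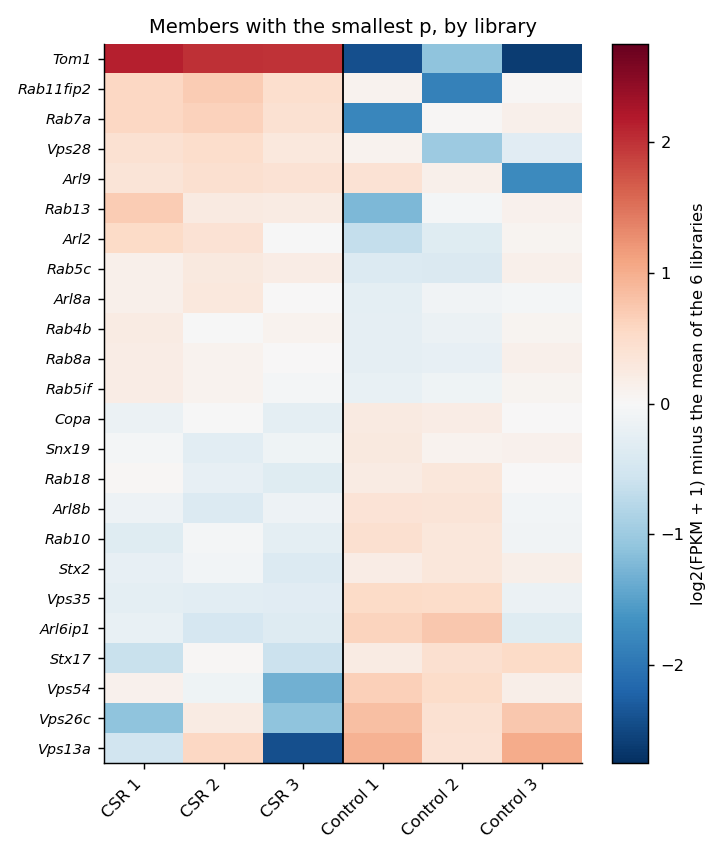
Values of the 24 members with the smallest p in each direction (rows, 12 each) in the 6 libraries (columns), as log2(FPKM + 1) minus the mean of the row; red is higher and blue lower. *Tom1* has the widest split between the groups, 1 control library is the lowest in *Rab7a*, *Rab11fip2* and *Arl9*, and control library 3 is close to the CSR columns at *Rab5c*, *Vps35* and *Arl6ip1*.

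Close paralogs had opposite signs in a pair noticed after the values were seen. *Arl8a* and *Arl8b* are GTPases that place lysosomes along microtubules. *Arl8a* read 4.80, 5.42 and 4.29 FPKM under CSR against 3.35, 3.96 and 4.08 in control, whereas *Arl8b* read 15.2, 12.7 and 15.3 FPKM under CSR against 22.4, 22.03 and 15.9 in control. The groups overlapped in neither, neither difference passed (adjusted p = 0.418 and 0.363), and the difference between the paralogs was not tested. Reads shared by such close copies may be split between them in counting.

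The remaining abundant members of each family did not pass the test. *Rab11b* of recycling endosomes, the highest Rab GTPase, read 31.2, 37.1 and 36.1 FPKM under CSR against 26.3, 26.8 and 52.99 in control. Control library 3 was the highest at *Rab11b*. *Arf5* and *Arf3* are GTPases of the Golgi. The first read 6.62, 6.81 and 5.42 FPKM against 9.49, 8.38 and 6.32. For *Arf3* the values were 9.44, 4.82 and 5.13 FPKM against 6.91, 7.30 and 4.63. In both the groups overlapped. Among the partners named after Arl6, *Arl6ip6* read 6.63, 7.03 and 7.70 FPKM against 9.94, 3.40 and 7.21. *Arl6ip5* read 3.55, 4.20 and 4.26 FPKM against 4.81, 4.91 and 3.42. *Arl6ip4* read 5.36, 5.24 and 0.877 FPKM against 5.11, 0.264 and 5.47. Control library 2 was the low one at *Arl6ip6*, and CSR library 3 and control library 2 were low at *Arl6ip4*. The COPI subunit *Copb1* read 6.19, 3.19 and 5.92 FPKM against 6.71, 6.16 and 3.40. *Copg1*, another, read 4.08, 4.003 and 2.91 FPKM against 3.59, 4.31 and 0.742. Both were below *Copa* and *Copg2* in all libraries. *Rab11fip1*, another Rab11 effector, read 1.38, 0 and 1.21 FPKM against 1.62, 1.57 and 1.53. *Rab3ip*, an activator of Rab8, read 1.06, 1.30 and 1.118 FPKM against 1.64, 0.884 and 0.494. At *Rab11fip1* each CSR library was below each control library, and at *Rab3ip* the groups overlapped.

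The other members that retrieve cargo from endosomes did not pass the test either. *Vps29* and *Vps26a* form the retromer with *Vps35*. The level of *Vps29* was 10.9, 10.5 and 10.5 FPKM against 11.4, 11.6 and 12.7. That of *Vps26a* was 16.00, 6.97 and 2.91 FPKM against 11.7, 17.4 and 1.95. The groups did not overlap at *Vps29*, with a log2 fold change of -0.15 (adjusted p = 0.481), while *Vps26a* was low in the third library of each group. *Snx27*, a retromer adaptor, had a transcript (NM_001110151) at 8.69, 4.76 and 8.26 FPKM against 9.75, 9.28 and 7.41. Its other transcript (NM_152847) was at 1.57, 4.49 and 1.05 FPKM against 2.59, 3.69 and 1.65. The groups overlapped at both transcripts. *Snx2*, a membrane-bending nexin, read 5.55, 6.33 and 6.39 FPKM against 7.12, 7.04 and 5.998. *Stx12* of recycling endosomes read 10.1, 8.62 and 9.80 FPKM against 11.5, 11.1 and 10.3, with every CSR library just below every control library.

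The 3 Vamps, vesicle SNAREs, lay close together. *Vamp3* read 5.40, 8.99 and 7.32 FPKM against 9.17, 6.90 and 7.47. *Vamp2* read 3.77, 4.77 and 1.72 FPKM against 4.97, 4.80 and 4.66. *Vamp7* read 2.91, 4.57 and 3.37 FPKM against 2.79, 2.98 and 4.27. The groups overlapped in each. *Vps39*, *Vps16* and *Vps18* are subunits of the HOPS complex, which docks vesicles to lysosomes. *Vps39* read 8.47, 6.41 and 7.66 FPKM against 9.70, 11.6 and 7.69. *Vps16* read 7.25, 7.63 and 7.13 FPKM against 6.24, 8.06 and 7.96. *Vps18* read 1.32, 0 and 1.27 FPKM against 1.23, 1.18 and 1.07. The groups overlapped here too. *Vps53* of the GARP and EARP tethers read 6.57, 7.26 and 6.57 FPKM against 4.83, 6.28 and 6.56, with the CSR libraries just above. *Vps52*, shared by both tethers, read 0, 2.02 and 0 FPKM against 0, 1.09 and 2.26, with 3 libraries at 0. *Vps25* of ESCRT-II read 8.58, 9.43 and 6.99 FPKM against 6.54, 7.09 and 8.92. The CSR and control ranges overlapped at *Vps52* and *Vps25*. *Vps45*, a regulator of syntaxins, read 9.45, 8.07 and 7.69 FPKM against 9.98, 9.94 and 8.85. *Vps9d1* read 2.21, 1.35 and 0 FPKM against 0.425, 1.30 and 0.538. Those 2 overlapped as well. The chromatin protein *Vps72*, at 9.51, 9.07 and 9.34 FPKM against 9.13, 9.41 and 10.2, varied little between libraries.

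Several members differed in large steps between libraries of the same group. A gap of 2 or more on the log2(FPKM + 1) scale between neighbouring libraries, a mark chosen after the values were seen, was found at 8 of 110 members, beside 4.33% of the whole table. Only at *Tom1* among the 8 did the gap separate the groups; in the whole table it did so at 8 of 304 transcripts. *Vps4a* (NM_145678), the ATPase that takes ESCRT-III apart, read 0.392, 0.421 and 27.2 FPKM under CSR against 0.199, 0.188 and 0.246 in control, so that 1 CSR library was high. Its paralog *Vps4b* read 6.19, 4.73 and 2.82 FPKM against 6.74, 6.11 and 5.10, with CSR library 3 the lowest. *Arl3* (NM_022700), a GTPase that releases lipid-modified cargo in cilia, read 1.40, 1.63 and 65.4 FPKM under CSR against 0.854, 61.3 and 77.7 in control. Both groups of *Arl3* were split, with 91.0 times between its highest and lowest library.

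*Arf6* (NM_024152), a GTPase of the cell surface, read 10.4, 0.574 and 10.7 FPKM under CSR against 0.864, 0.382 and 0.295 in control, high in CSR libraries 1 and 3. *Rab2a*, a GTPase of Golgi traffic, read 12.9, 14.1 and 0.800 FPKM against 12.4, 11.1 and 12.6. *Rab28* read 7.95, 7.96 and 0.260 FPKM against 5.04, 10.1 and 12.2. CSR library 3 was the low one at both. *Stx8*, a late endosomal syntaxin, read 8.85, 0 and 7.62 FPKM against 5.05, 4.44 and 8.09. At *Stx8* CSR library 2 was the low one. *Arl4a* (NM_019186), an Arf-like GTPase, was just under the mark with 67.02, 65.8 and 13.1 FPKM under CSR against 109, 109 and 15.8 in control, so that the third library of each group was low. *Stx5*, the Golgi syntaxin, read 3.39, 13.4 and 16.3 FPKM against 3.19, 1.81 and 13.9, high in CSR libraries 2 and 3 and control library 3. Of the 109 genes 83 have more than 1 RefSeq transcript in GRCr8 and 108 have a single row in the table; how reads were divided between transcripts is not given, and its part in these steps was not tested.

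**Figure D4:**
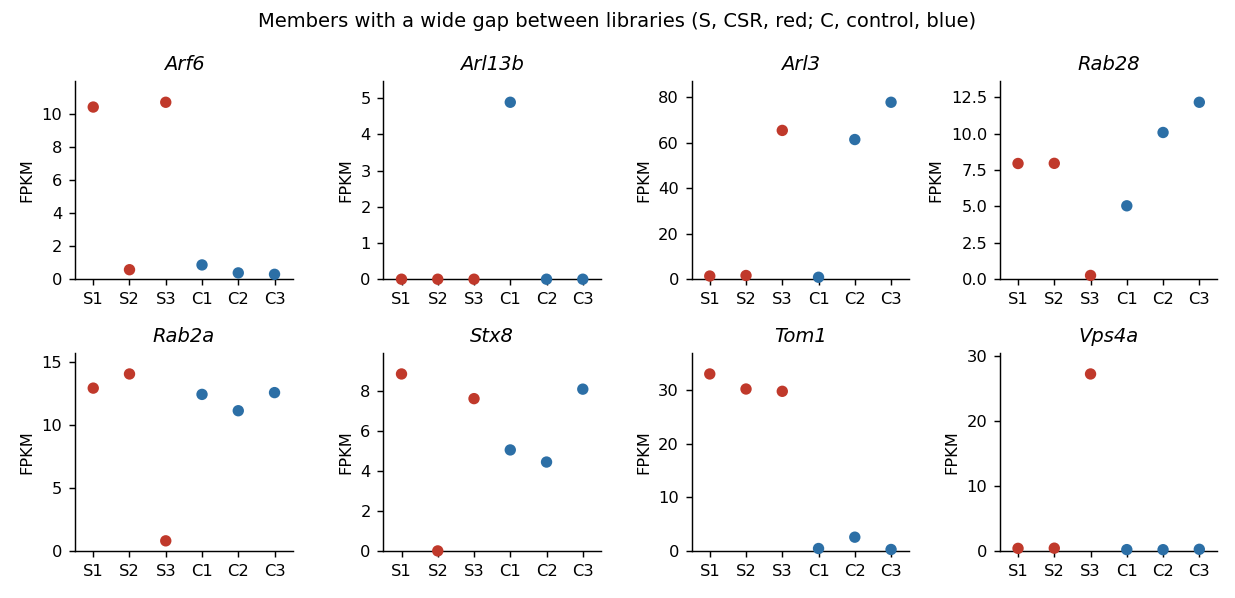
FPKM (linear axes from 0) of the 8 members with a gap of 2 or more on the log2(FPKM + 1) scale, in CSR libraries 1 to 3 (S1 to S3, red) and control libraries 1 to 3 (C1 to C3, blue). *Tom1* is the only panel where all red points lie on one side of the gap and all blue points on the other; *Vps4a* is high in 1 CSR library and *Arl3* in 1 CSR and 2 control libraries.

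Values at 0 were more common under CSR among the members, as in the table. Of 330 values in each group, 50 were at 0 under CSR and 13 in control. The 9 members at 0 in each CSR library and above 0 in 1 or more control libraries were *Arl5a*, *Arl13b*, *Rab4a*, *Rab6a*, *Rab9a*, *Snx10*, *Snx11*, *Snx29* and *Vps50*, beside 6.81% of the whole table. *Rab6a*, the main Rab of the Golgi, read 1.17, 1.23 and 0.688 FPKM in control, and *Snx29* read 1.14, 2.02 and 0.811. *Arl13b*, which activates *Arl3* in cilia, was at 4.89 FPKM in control library 1 and at 0 in the other libraries. *Rab6a*, *Rab9a*, *Snx10*, *Snx11* and *Snx29* were above 0 in every control library, which is 5 of 110 members, beside 2.88% of the table, and 0 members showed the reverse pattern, beside 0.0143%. Whether an exact 0 is a failed estimate was not tested. Low values were not limited to CSR: *Arf1*, a GTPase that every cell uses to form Golgi coats, read 0, 0.144 and 0.184 FPKM against 0.0857, 1.03 and 0.0948. No fold is given for these transcripts.

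**Figure D5:**
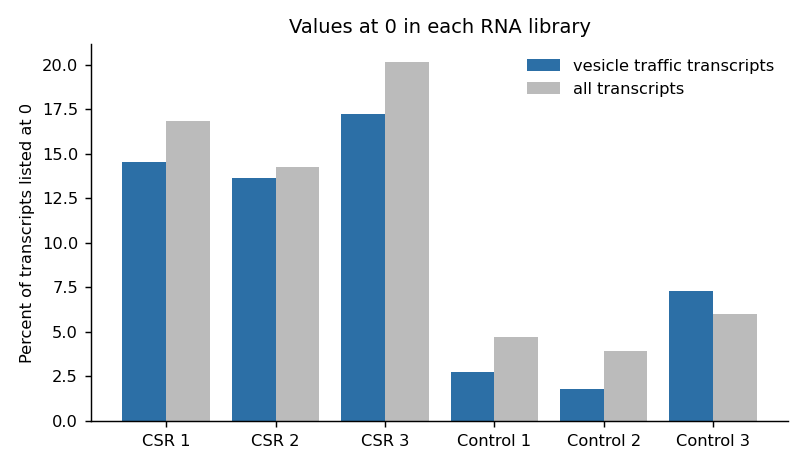
Percent of transcripts listed at 0 in each RNA library, for the 110 vesicle traffic transcripts (blue) and all 7016 transcripts (grey). Every CSR library (13.6 to 17.3% of members) is above every control library (1.82 to 7.27%), for members and for the whole table.

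In all, 19 members did not reach 1 FPKM in 3 libraries and were not tested; they include the 9 above, *Vps4a* and *Arf6*. *Arl6*, a GTPase of the cilium base, read 0.833, 1.33 and 1.14 FPKM against 0.240, 0.211 and 0.191, and *Rab40c* read 1.09, 1.84 and 0.637 FPKM against 0.287, 0.227 and 0.543. All CSR libraries were above all control libraries in both, at levels near 1 FPKM. The remaining untested members, *Arf1*, *Rab5b*, *Rab24*, *Rab34*, *Snx12* and *Vps33b*, had means under 1 FPKM.

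Other genes of vesicle traffic, listed by function and not by how they moved, gave no call. Of 277 listed genes 155 were in the table, and of their 139 tested transcripts limma called 0 higher and 0 lower; at an unadjusted p under 0.05, 2 were higher and 8 lower, beside 5.9 and 7.32% of all tested transcripts. The median log2 fold change was -0.10, beside -0.06 over all tested transcripts, with 52 positive and 87 negative (44.0 and 56.0% of all). These counts are no result about the lists. The p24 and KDEL receptors (7 tested, 0 called) escort cargo between endoplasmic reticulum and Golgi; all 7 had negative values with a median of -0.44, and whether they differ from other transcripts was not tested. *Tmed10*, their most abundant member, read 37.8, 36.4 and 29.6 FPKM against 42.4, 39.8 and 37.2. *Tmed2* was next at 15.03, 15.7 and 13.8 FPKM against 17.5, 17.1 and 15.6. Clathrin and its adaptors (20 tested) had a median of 0.07. The adaptor subunit *Ap1m1* read 69.8, 70.7 and 61.7 FPKM against 56.7, 61.6 and 67.5. *Ap3d1*, of another adaptor, read 42.6, 45.9 and 46.5 FPKM against 39.05, 46.3 and 44.4. The groups of these 4 overlapped.

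The other lists had medians below 0: -0.11 for COPII genes (16 tested), -0.17 for SNARE partners (19), -0.01 for ESCRT genes (19), -0.08 for Rab and Arf regulators (26) and -0.19 for tethers and golgins (32). Among COPII genes the cargo receptor *Lman2* read 26.5, 24.8 and 23.4 FPKM against 25.3, 29.2 and 26.4. *Ergic3* read 31.00, 20.1 and 22.1 FPKM against 23.6, 31.6 and 24.9. Among SNARE partners *Napa*, which helps take SNAREs apart, read 21.6, 19.8 and 20.9 FPKM against 19.4, 22.8 and 21.8. The groups of these 3 overlapped. *Gosr2*, a Golgi SNARE, read 19.2, 16.9 and 19.5 FPKM against 16.00, 13.9 and 23.98. Among ESCRT genes *Tsg101*, which binds ubiquitin-tagged cargo, read 27.7, 29.1 and 26.2 FPKM against 22.9, 24.5 and 26.3. *Stam2*, which does so too, read 26.3, 25.7 and 25.5 FPKM against 28.1, 20.7 and 27.3. Here also the groups overlapped. Among the regulators *Gdi2*, which extracts Rabs from membranes, read 58.6, 48.6 and 50.2 FPKM against 16.9, 72.5 and 53.7. *Rabac1* read 43.8, 47.99 and 40.1 FPKM against 32.3, 41.4 and 39.04. At *Gdi2* control library 1 was the low one, and the groups overlapped at both. Among tethers *Cog6* of a Golgi complex read 69.5, 57.6 and 53.7 FPKM against 75.5, 72.3 and 60.6. *Hook1*, which is needed for the sperm head, read 36.5, 34.2 and 35.5 FPKM against 42.2, 47.01 and 38.4. The groups overlapped at *Cog6* and not at *Hook1* (adjusted p = 0.372). Without control library 3, 1 transcript of the lists was called, *Rabep2*, a Rab5 effector, at 6.31, 6.74 and 6.89 FPKM against 1.37, 2.35 and 5.32; it was named after its values were seen.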

How the data were processed

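RNA from 3 CSR and 3 control testis libraries was used, grouped by the labels' titles. The authors deposited 1 FPKM value per library for each of 7016 RefSeq transcripts. Trimmomatic, HISAT2, StringTie and build rn6 were used, per the submitters' processing notes; no source used here gives their versions or settings. The RNA was poly(A)-selected, per the labels' protocols. In the low values no step worth 1 read could be found, so depth and counting error are unknown. Accessions were matched to symbols in the RefSeq gene table of GRCr8 (6911 matched, 105 did not), used for names, numbers of transcripts and overlapping genes; start regions come from the RefSeq promoter table of that build.

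The 5657 transcripts that reached 1 FPKM in 3 or more libraries were tested on log2(FPKM + 1), two-sided, with limma 3.58.1 (R 4.3.3; variances moderated along the mean level) and Benjamini-Hochberg adjustment over all of them at 0.05. Fold changes on this scale understate those of low transcripts. The fit was tested on simulated data. Members, lists and the naming rule were chosen with earlier results of these data known. Values are given for called members, the 12 smallest p in each direction, up to 4 of the highest mean per family, members at 0 in 1 group with a mean of 1 FPKM or more in the other, and up to 2 of the highest mean per pathway list; marker lists are given as sums. Alternatives covered the pseudocount, filter, scaling, variance model, each library left out, control libraries 1 and 2 (whose codes differ in the last digit) as 1, and the replicate number. No library was dropped or imputed in the main results.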

Additional observations from a re-analysis of the deposited data

How the results depend on the processing

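The 24 members whose fold change is described were picked for the smallest p in each direction in the main fit. The alternatives reuse the same libraries, so a kept sign was largely fixed in advance and is no support. None changed sign in 17 alternatives. In 396 of 405 values the side of the threshold was kept too, which for all members but *Tom1* means staying uncalled. The other 9 are those of *Tom1* (6), where its call was lost, and of *Arl6ip1*, *Vps35* and *Rab5c* without control library 3, where a call was gained. The number of called transcripts, 25, was 11 with a pseudocount of 0.1, 13 with a mean of at least 1 FPKM as the filter, 16 among transcripts above 0 in all libraries, 77 without the mean-variance trend, 7 with control libraries 1 and 2 as 1 library, and 4 to 259 with each library left out in turn. The number of called members, 1, was 0 with the pseudocount of 0.1 and 0 to 4 with each library left out; *Tom1* stayed called without control library 2 and without control library 3. Called transcripts of the pathway lists numbered 0 to 1, and the median log2 fold change of the members -0.19 to -0.0839, with each library left out. With the replicate block, 0 transcripts and 0 members were called, and *Tom1* had a log2 fold change of 4.10 with an adjusted p of 0.171. Deviations of same-numbered libraries had correlations of 0.032, 0.009 and 0.042, all under 0.1, and nothing in the labels says that a number marks a shared source. CSR libraries 1 and 3 correlated best with the control library of their own number, and CSR library 2 with control library 1 (0.034). The numbers are therefore not taken to pair the libraries. The unknown read depth leaves members under about 1 FPKM without a usable comparison.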
